A study of Mus musculus with 6 samples.

Results

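A list of genes of DNA replication and S phase were followed in mouse liver injured by a bile duct toxin, with and without knockdown of the transcription factor gene Atoh8. The 52 members were a named list matched by gene symbol and then by gene identifier to the count files, out of 47729 genes. All 52 were found. The study held 6 liver RNA libraries from C57BL/6 mice that all ate a diet with 0.1% DDC for 17 days. DDC is a porphyrinogenic compound that blocks and injures small bile ducts and damages hepatocytes. The knockdown group had 3 libraries labelled Atoh8 KD. The control group had 3 libraries that the titles call WT and the series' design text calls shNC, a name usual for a non-targeting hairpin. No library came from a liver without DDC. The source is labelled liver and the cell type hepatocyte. The vector, promoter and cells that carried the hairpin are not stated. Whether each replicate was its own animal is also not stated, so the p-values reflect the spread among these 6 samples alone, and that spread may be technical.

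Before a cell copies its DNA, the origin recognition complex, CDC6 and CDT1 load the MCM ring onto origins, a step called licensing. CDC45 and GINS then join the ring to make the active helicase. DNA polymerase alpha with primase lays down primers, the clamp loader RFC places the PCNA clamp, and polymerases delta and epsilon extend the strands. Many of these genes are transcribed only around S phase, under E2F factors that pocket proteins such as RB restrain. Adult hepatocytes rarely divide, often carry more than a diploid set of chromosomes, and can re-enter the cycle after injury.

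Gene reads per library were 37584160, 36915731 and 37969644 in the knockdown and 35438096, 36970491 and 31912058 in the control libraries. A count of 3 reads, the limit that a count of 0 allows, corresponded to 0.0790 to 0.0940 counts per 1e6 reads (CPM) on unscaled read totals, for counting error only. The CPM given for genes use scaled library sizes. On that scale 3 reads were 0.0994 CPM in control replicate 1 and 0.0975 CPM in control replicate 3. Control replicate 1 stood apart from the other libraries. Its log2 CPM correlated with control replicates 2 and 3 at 0.916 and 0.907 across genes, against 0.984 between those 2 and 0.980 to 0.985 between knockdown libraries. Results are therefore given with all 6 libraries and again without control replicate 1. Atoh8 itself had 10.2, 9.83 and 5.64 CPM in the knockdown libraries and 63.8, 16.8 and 16.4 CPM in the control libraries. The groups did not overlap, but the difference did not pass with all 6 libraries (log2 fold change -1.92 with SE 0.58, edgeR adjusted p = 0.197) and passed without control replicate 1 (-0.95, SE 0.23, edgeR adjusted p = 0.0115).

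Expression of the replication genes was mostly higher in the knockdown livers. Of the 52 members, 49 had a positive log2 fold change (knockdown over control) and 3 a negative one, with a median of 1.01, against a median of -0.05 over all 13767 genes tested. Of these, 4 passed the edgeR quasi-likelihood test at an adjusted p under 0.05, and these 4 were higher in the knockdown. They were Mcm3 and Mcm6, subunits of the MCM ring, Clspn, which encodes the checkpoint mediator claspin, and Uhrf1, which links replication to DNA methylation. Clspn, with Orc1 and Exo1, passed the filter on low counts through the knockdown libraries alone. Among all genes tested, 0.741% were called higher and 0.123% lower. No member was called lower by edgeR, DESeq2 or limma-voom with all 6 libraries, and 0 had an unadjusted edgeR p under 0.05 in that direction. In the direction of higher expression, 36 had an unadjusted p under 0.05. Without control replicate 1, 36 members were called higher and 0 lower, when 16.5% of all 14222 genes were called higher and 16.1% lower. The median of the members was then 0.96, against 0.01 over all genes. In these bulk samples a different number of cells in S phase and a different amount of RNA per cell cannot be told apart.

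The count of calls depended on the fit, while 43 of the 52 members had a positive fold change in every fit that held them. With all 6 libraries, DESeq2 called 23 members higher (3.73% of its genes), limma-voom with quality weights called 37 (18.7%), and edgeR with an offset for GC content and length, added after seeing the data, called 14 (2.30%). Lower calls made up 1.40%, 18.2% and 2.19% of all genes in these 3 fits, with 0 members among them. Leaving out any library other than control replicate 1 left 0 edgeR calls among the members. All 3 knockdown values lay above all 3 control values for 37 members, which was so for 13.0% of all genes tested, and below them for 0 members, against 10.0% of all genes. Without control replicate 1 these counts were 40 above (28.7% of all genes) and 1 below (29.9%).

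**Figure D1:**
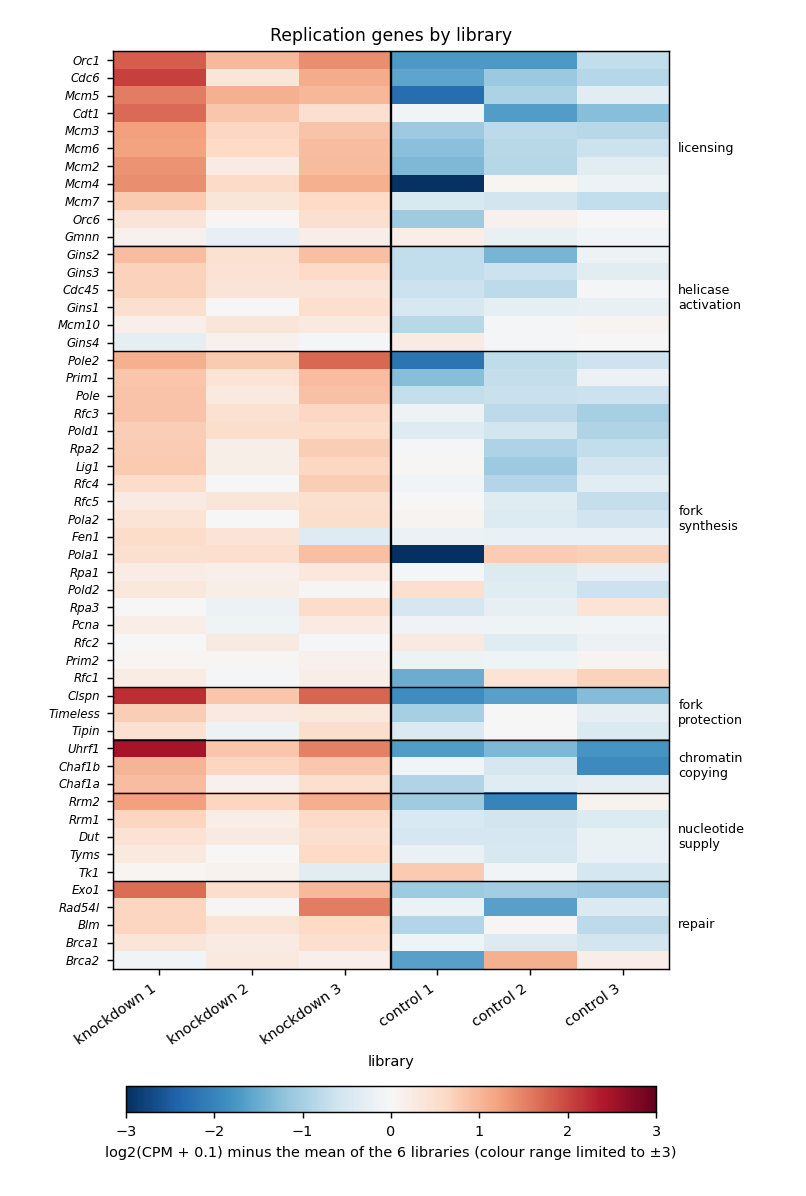
Level of each of the 52 replication genes in each library, as the difference of its log2(CPM + 0.1) from the gene's mean over the 6 libraries, with genes in rows by role, the colour range limited to 3 in each direction and the 3 knockdown libraries left of the 3 control libraries. Knockdown replicates 1 and 3 hold the highest value for 26 and 18 genes, and control replicate 1 holds the lowest for 24.

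The heat map of single genes shows how the members differed from library to library. The median member deviated from its own 6-library mean by 0.68, 0.29 and 0.58 in the knockdown libraries and by -0.51, -0.50 and -0.34 in the control libraries, on the log2(CPM + 0.1) scale. Knockdown replicate 2 was the lowest knockdown library for 41 of 52 members. Control replicate 1 was the lowest of all 6 libraries for 24 members and the highest for 4. All members together took 25736, 18290 and 24085 reads in the knockdown libraries and 9345, 10682 and 10072 reads in the control libraries, so the sums did not overlap.

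The promoters of the called genes are shown here with matches to the E2F binding site, because many genes of this group are textbook E2F targets. The windows run from 250 bases before to 50 bases after the annotated start, in the direction of transcription, and come from RefSeq on the GRCm38.p6 build. Capitals mark the forms TTTGGCGC, TTTCGCGC, TTTCCCGC and TTTGCCGC on either strand. Overlapping matches are merged in the capitals.
Mcm3, chr1:20820263-20820562, minus strand: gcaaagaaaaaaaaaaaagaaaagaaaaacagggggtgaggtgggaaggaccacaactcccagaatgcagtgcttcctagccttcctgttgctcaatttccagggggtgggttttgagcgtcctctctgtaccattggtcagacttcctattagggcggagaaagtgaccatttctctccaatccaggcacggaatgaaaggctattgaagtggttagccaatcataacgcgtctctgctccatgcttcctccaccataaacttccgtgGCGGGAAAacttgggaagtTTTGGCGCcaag
Mcm6, chr1:128359656-128359955, minus strand: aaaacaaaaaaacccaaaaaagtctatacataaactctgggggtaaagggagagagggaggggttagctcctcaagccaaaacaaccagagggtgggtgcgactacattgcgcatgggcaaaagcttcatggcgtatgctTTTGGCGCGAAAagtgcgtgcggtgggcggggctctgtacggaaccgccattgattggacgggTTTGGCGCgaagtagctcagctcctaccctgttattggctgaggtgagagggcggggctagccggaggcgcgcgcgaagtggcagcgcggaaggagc
Clspn, chr4:126556730-126557029, plus strand: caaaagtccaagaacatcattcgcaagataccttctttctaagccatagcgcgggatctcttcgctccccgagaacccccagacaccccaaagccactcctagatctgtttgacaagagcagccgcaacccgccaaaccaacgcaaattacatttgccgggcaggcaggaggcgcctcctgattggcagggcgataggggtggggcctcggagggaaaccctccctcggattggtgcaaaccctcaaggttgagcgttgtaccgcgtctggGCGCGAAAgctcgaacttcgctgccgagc
Uhrf1, the downstream of its 2 windows, chr17:56304063-56304362, plus strand: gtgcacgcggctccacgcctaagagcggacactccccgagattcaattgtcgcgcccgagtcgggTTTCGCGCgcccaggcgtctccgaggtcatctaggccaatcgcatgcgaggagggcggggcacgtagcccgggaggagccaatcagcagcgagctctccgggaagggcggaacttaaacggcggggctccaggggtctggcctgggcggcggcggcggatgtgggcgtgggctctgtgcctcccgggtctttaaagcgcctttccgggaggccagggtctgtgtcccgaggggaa
Mcm5, chr8:75109259-75109558, plus strand, a licensing gene called without control replicate 1: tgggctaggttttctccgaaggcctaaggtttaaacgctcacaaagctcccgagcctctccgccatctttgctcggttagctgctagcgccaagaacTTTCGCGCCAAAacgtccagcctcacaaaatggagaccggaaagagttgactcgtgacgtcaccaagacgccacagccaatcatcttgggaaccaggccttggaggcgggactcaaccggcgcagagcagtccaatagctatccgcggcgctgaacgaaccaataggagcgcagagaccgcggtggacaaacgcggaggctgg
Mcm2, chr6:88898731-88899030, minus strand, a licensing gene with none of these forms: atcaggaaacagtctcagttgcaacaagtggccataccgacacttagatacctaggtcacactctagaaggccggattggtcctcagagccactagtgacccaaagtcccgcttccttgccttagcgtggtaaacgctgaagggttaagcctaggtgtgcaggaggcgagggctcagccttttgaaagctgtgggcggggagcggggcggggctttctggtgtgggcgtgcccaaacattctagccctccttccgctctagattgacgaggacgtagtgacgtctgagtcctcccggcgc
Pcna, chr2:132253131-132253430, minus strand, the clamp gene, also with none: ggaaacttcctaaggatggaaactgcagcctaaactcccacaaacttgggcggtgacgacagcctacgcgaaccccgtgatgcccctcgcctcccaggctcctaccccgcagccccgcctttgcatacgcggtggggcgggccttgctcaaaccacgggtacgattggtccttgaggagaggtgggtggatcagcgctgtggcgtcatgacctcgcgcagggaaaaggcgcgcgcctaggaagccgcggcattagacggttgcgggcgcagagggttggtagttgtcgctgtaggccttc

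In these windows the Mcm3 matches began 19 and 38 bases downstream of the start. Mcm6 had matches 110, 106 and 47 bases upstream, of which the first pair overlapped on opposite strands. Mcm5 likewise had an overlapping pair at 153 and 149 bases upstream. The Clspn match lay 21 bases downstream of its start, and that of Uhrf1 185 bases upstream of the second of its starts. A window was matched by symbol for 42 of the 52 members, and 16 of these (38.1%) held at least 1 form. The same forms were in 704 of 27025 genes of the table (2.60%). Licensing genes held them in 7 of 9 windowed genes, fork synthesis genes in 5 of 16, and nucleotide supply genes in 0 of 5. The plain CCAAT box on either strand was found in 64.3% of members and 41.1% of all genes. Taking the window of highest GC content for each gene, the median was 60.7% for members and 53.3% for all genes. Over single windows it was 58.0% for members and 52.7% for all windows. The 16 members with an E2F form had a median log2 fold change of 1.84 and included the 4 genes called by edgeR with all 6 libraries. The 26 without one had a median of 0.77 and 0 such calls. Orc1 and Clspn, among the 16, passed the low-count filter through the knockdown libraries alone, so they could be tested only because they were higher there. The difference between the 16 and the 26 was not tested. Without control replicate 1, 14 of the 16 and 18 of the 26 were called higher, when 16.5% of all genes were. The forms were also in 1 of 19 windowed genes of a mitotic list and in 10 of 50 of a wider replication list, both described below. With all 6 libraries the mitotic list had a median log2 fold change of 4.01, and edgeR called 16 of its 23 genes higher. Some mitotic genes passed the low-count filter through the knockdown libraries alone. The wider replication list had a median of 0.43 and 0 calls. Whether the forms go with the size of the difference was not tested. A match is a description of letters and does not show binding.

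Of the 11 licensing genes, 2 were called higher with all 6 libraries (0.741% of all genes) and 9 without control replicate 1 (16.5%). Their median log2 fold change was 1.84, and for 9 of 11 the groups did not overlap. Mcm3 (chr1:20802968-20820312 on GRCm38, minus strand) had 21.6, 14.3 and 16.8 CPM in the knockdown libraries and 4.27, 5.27 and 5.13 CPM in the control libraries. Its lowest knockdown value lay above its highest control value. The means were 17.6 ± 3.72 CPM in the knockdown and 4.89 ± 0.543 CPM in the control (SD, n = 3 each), a log2 fold change of 1.84 with SE 0.24 (edgeR adjusted p = 0.031). Mcm6 (chr1:128331590-128359664, minus strand), another subunit of the same ring, had 46.6, 30.7 and 38.5 CPM in the knockdown libraries and 8.35, 11.2 and 12.8 CPM in the control libraries. Every knockdown library was again above every control library. The means were 38.6 ± 7.94 CPM in the knockdown and 10.8 ± 2.26 CPM in the control (SD, n = 3 each), a log2 fold change of 1.84 with SE 0.26 (edgeR adjusted p = 0.0331).

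By edgeR, the other 4 MCM ring subunits did not pass with all 6 libraries and passed without control replicate 1. DESeq2 also called Mcm2, Mcm5 and Mcm7 with all 6, and limma-voom called all 4. Mcm2 had 29.3, 13.7 and 22.2 CPM in the knockdown libraries and 4.44, 6.31 and 9.10 CPM in the control libraries (log2 fold change 1.72 with SE 0.38, edgeR adjusted p = 0.0968, and 0.00457 without control replicate 1). Mcm5 had 22.5, 16.1 and 15.5 CPM in the knockdown and 1.49, 3.90 and 6.01 CPM in the control (2.25, SE 0.48, edgeR adjusted p = 0.0905, and 0.000586). Both genes were lowest in control replicate 1, and neither overlapped between groups. Mcm7 had 30.8, 23.2 and 27.0 CPM in the knockdown and 13.0, 12.1 and 10.8 CPM in the control, with the groups apart and the smallest spread of the 4 (1.18, SE 0.20, edgeR adjusted p = 0.0555, and 0.000642). Mcm4 had 17.6, 9.93 and 13.8 CPM in the knockdown and 0.762, 6.85 and 5.95 CPM in the control. Its control replicate 1 lay far under the other controls, and its log2 fold change was 1.61 with all 6 libraries (SE 0.68, edgeR adjusted p = 0.343) and 1.12 without that library (SE 0.24, edgeR adjusted p = 0.00667).

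Per transcript length, in the authors' FPKM (fragments scaled to transcript length and library size), the 6 subunits of the ring summed to 62.7, 42.8 and 53.1 in the knockdown libraries and 14.3, 20.04 and 17.9 in the control libraries. The groups were apart, and the means were 52.9 ± 9.94 in the knockdown and 17.4 ± 2.90 in the control (SD, n = 3 each). The ring holds its 6 subunits in equal number, but their RNA levels were unequal. The highest subunit exceeded the lowest 3.55-, 4.49- and 4.07-fold in the knockdown libraries and 19.96-, 5.77- and 2.65-fold in the control libraries. Mcm4 was the lowest of the 6 in every knockdown library and in control replicate 1, and Mcm5 the lowest in control replicates 2 and 3. Mcm7 was the highest in every control library.

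**Figure D2:**
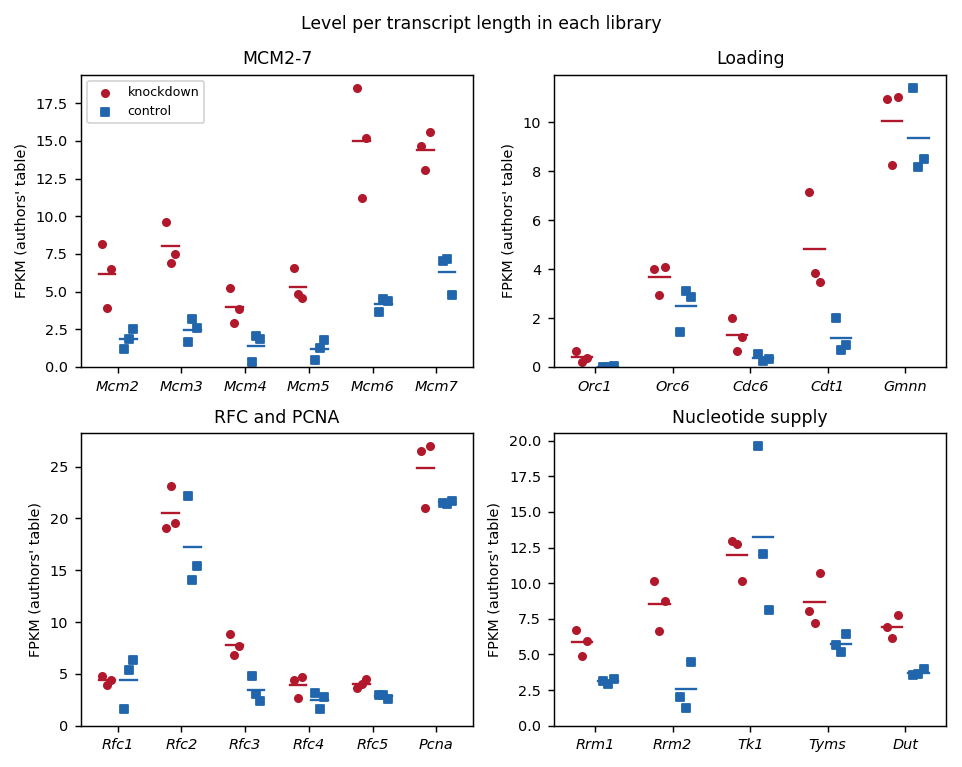
FPKM (vertical axis, linear) of the MCM ring, loading, clamp and nucleotide supply genes, 1 point per library and a line at each mean, with knockdown circles left of control squares. Pcna sat between 21.0 and 26.9 in the knockdown and between 21.4 and 21.7 in the control, whereas Mcm6 sat between 11.2 and 18.5 in the knockdown and between 3.63 and 4.52 in the control.

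Of the factors that load the ring, Orc1, Cdc6 and Cdt1 were low in control livers, with mean FPKM of 0.0156, 0.363 and 1.19. Among origin recognition subunits outside the members, Orc2 had a control mean of 2.67 ± 0.798 FPKM (SD, n = 3). Orc3, Orc4 and Orc5 had 11.6 ± 5.02, 12.9 ± 6.41 and 10.1 ± 3.01 FPKM (SD, n = 3 each). Orc3 and Orc4 were lowest in control replicate 1, at 5.82 and 5.55 FPKM. EdgeR called none of Orc2, Orc3, Orc4 and Orc5 with all 6 libraries. Without control replicate 1 it called Orc3 (-0.49, edgeR adjusted p = 0.0177) and Orc4 (-1.03, edgeR adjusted p = 0.00159) lower, when 16.1% of all genes were called lower. Orc2 and Orc5 were not called there. Orc1, the largest origin recognition subunit, had 1.07, 0.549 and 0.769 CPM in the knockdown libraries and 0, 0 and 0.0975 CPM in the control libraries. That was 98 knockdown reads against 3 control reads over 3 libraries each, a ratio of 25.6 after scaling for library size (95% exact interval 8.50 to 126, counting error only). The edgeR adjusted p was 0.0923, and 0.00792 without control replicate 1. No control library reached the filter's minimum for Orc1, so its place among the tested genes already required higher knockdown values. Cdc6, the ATPase that helps load the ring, had 6.42, 1.93 and 3.33 CPM in the knockdown libraries and 0.431, 0.631 and 0.780 CPM in the control libraries (log2 fold change 2.66 with SE 0.52, edgeR adjusted p = 0.0744, and 0.00559 without control replicate 1). Its groups were apart, with knockdown replicate 1 the highest. Cdt1, the partner of Cdc6 in loading, had 16.2, 8.96 and 7.04 CPM in the knockdown and 4.67, 1.49 and 1.98 CPM in the control (1.99, SE 0.52, edgeR adjusted p = 0.149, and 0.000851 without control replicate 1). Here too the groups were apart.

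Geminin, encoded by Gmnn, binds CDT1 and blocks relicensing, and its RNA was not called in either fit. Gmnn had 8.51, 6.53 and 8.83 CPM in the knockdown libraries and 8.88, 6.65 and 7.34 CPM in the control libraries, with overlapping groups (log2 fold change 0.06 with SE 0.24, edgeR adjusted p = 0.933). The FPKM ratio of Cdt1 to Gmnn was 0.652, 0.467 and 0.314 in the knockdown libraries and 0.175, 0.0858 and 0.104 in the control libraries, so these ratios were apart. Orc6, the smallest origin recognition subunit, had 5.82, 4.57 and 6.25 CPM in the knockdown and 2.05, 4.84 and 4.48 CPM in the control, and its groups overlapped (0.55, SE 0.36, edgeR adjusted p = 0.556).

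Of the 6 genes that turn the loaded ring into a helicase, 0 were called by edgeR with all 6 libraries. Of the 6, 4 had an unadjusted p under 0.05, in each case higher. DESeq2 called 2 higher (3.73% of all genes), limma-voom 3 (18.7%) and edgeR without control replicate 1 also 3 (16.5%). Gins2, a GINS subunit, had 3.25, 2.35 and 3.24 CPM in the knockdown libraries and 0.960, 0.573 and 1.49 CPM in the control libraries (log2 fold change 1.55 with SE 0.42, edgeR adjusted p = 0.158, and 0.0195 without control replicate 1). Its groups were apart, but 67.3% of its exon bases lie under exons of Gse1 on the other strand, and no source says if strand was used in counting. Gins3 had 1.62, 1.33 and 1.49 CPM in the knockdown and 0.530, 0.573 and 0.747 CPM in the control (1.26, SE 0.36, edgeR adjusted p = 0.174, and 0.0432). Cdc45, which bridges the ring and GINS, had 3.78, 3.01 and 3.03 CPM in the knockdown and 1.42, 1.29 and 2.21 CPM in the control (1.00, SE 0.33, edgeR adjusted p = 0.225, and 0.0495). Both of these were also apart. Gins1 had 4.12, 2.95 and 4.22 CPM in the knockdown and 2.09, 2.44 and 2.50 CPM in the control, and Gins4 had 9.99, 13.6 and 11.7 CPM in the knockdown and 14.7, 12.1 and 12.4 CPM in the control. Gins1 was apart without a call (0.68, SE 0.28, edgeR adjusted p = 0.318, and 0.107 without control replicate 1). Gins4 overlapped between groups (-0.15, SE 0.22, edgeR adjusted p = 0.797) and was the most abundant of the 4 by FPKM in every library. Summed GINS FPKM was 17.3 ± 0.865 in the knockdown and 15.0 ± 1.07 in the control (SD, n = 3 each). Mcm10, which helps start the fork, had 24.3, 28.1 and 26.6 CPM in the knockdown and 12.3, 20.9 and 23.2 CPM in the control. The groups were narrowly apart, without a call (0.48, SE 0.27, edgeR adjusted p = 0.468, and 0.155 without control replicate 1).

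**Figure D3:**
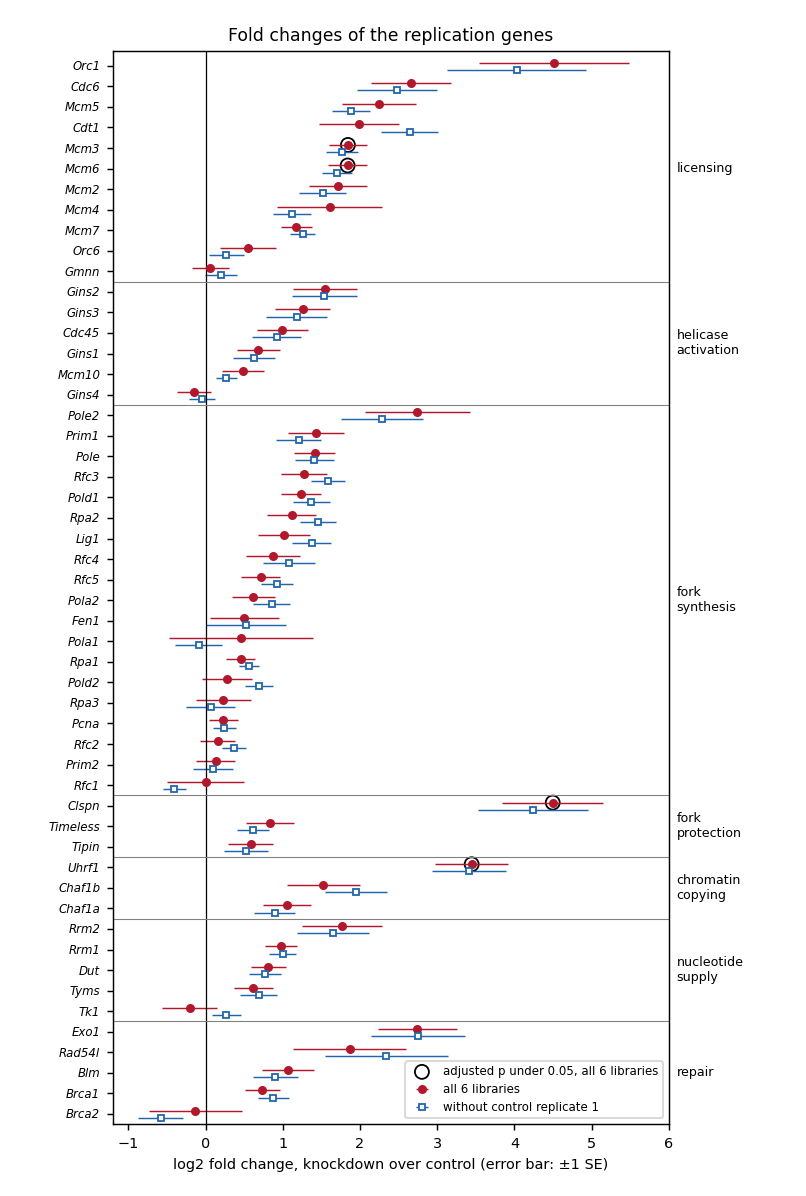
Log2 fold change (knockdown over control, horizontal axis) of each member with its standard error as a bar, with all 6 libraries (filled circles) and without control replicate 1 (open squares), genes grouped by role and the 4 called genes ringed. The values run from -0.20 for Tk1 to 4.51 for Orc1 with all 6 libraries.

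Of the 19 genes of synthesis at the fork, 0 were called by edgeR with all 6 libraries and 10 had an unadjusted p under 0.05 toward higher expression. DESeq2 called 6 higher (3.73% of all genes) and limma-voom 12 (18.7%). Without control replicate 1, edgeR called 12 higher (16.5%). The median log2 fold change was 0.62, and the groups were apart for 10 of 19.

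Among the polymerases, the catalytic subunits of the leading and lagging strand enzymes were called higher without control replicate 1. Pole, of polymerase epsilon, had 8.07, 5.44 and 8.23 CPM in the knockdown libraries and 2.65, 2.72 and 2.79 CPM in the control libraries (log2 fold change 1.41 with SE 0.26, edgeR adjusted p = 0.0655, and 0.00302 without control replicate 1). Pold1, of polymerase delta, had 7.03, 6.09 and 6.18 CPM in the knockdown and 3.18, 2.84 and 2.18 CPM in the control (1.23, SE 0.26, edgeR adjusted p = 0.0845, and 0.00225). For both, the control CPM lay close together and under every knockdown library. Pole2, the second epsilon subunit, had 1.16, 0.941 and 1.89 CPM in the knockdown and 0.0331, 0.258 and 0.292 CPM in the control (2.74, SE 0.68, edgeR adjusted p = 0.138, and 0.00939). The FPKM ratio of Pole2 to Pole was 0.553, 0.591 and 0.568 in the knockdown libraries and 0.125, 0.419 and 0.241 in the control libraries. Unlike its CPM, the FPKM of Pole overlapped between groups. It was 1.21, 1.16 and 2.06 in the knockdown and 0.392, 0.513 and 1.17 in the control. Pold2, the second delta subunit, had 12.3, 11.2 and 10.2 CPM in the knockdown and 13.8, 7.71 and 6.34 CPM in the control. It overlapped only through control replicate 1, and passed without that library (0.69, SE 0.18, edgeR adjusted p = 0.016), against an adjusted p of 0.746 with all 6.

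Of the 4 polymerase alpha and primase genes, which make the primers, 2 were called higher without control replicate 1. Prim1, the catalytic primase subunit, had 5.43, 4.02 and 5.80 CPM in the knockdown libraries and 1.19, 1.81 and 2.66 CPM in the control libraries (log2 fold change 1.43 with SE 0.36, edgeR adjusted p = 0.142, and 0.0107 without control replicate 1). Prim2, its large subunit, had 3.01, 2.95 and 3.17 CPM in the knockdown and 2.58, 2.67 and 3.09 CPM in the control, and these overlapped (0.13, SE 0.25, edgeR adjusted p = 0.854). Pola2 had 7.76, 5.80 and 8.41 CPM in the knockdown and 6.13, 4.36 and 3.83 CPM in the control. It overlapped with control replicate 1 and not with the other controls (0.62, SE 0.28, edgeR adjusted p = 0.376, and 0.0196 without control replicate 1). Pola1, the catalytic subunit of polymerase alpha, had 1.77, 1.80 and 2.40 CPM in the knockdown and 0.0331, 2.18 and 2.11 CPM in the control. Its positive log2 fold change of 0.46 with SE 0.93 (edgeR adjusted p = 0.859) rested on control replicate 1 and was -0.09 without it.

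The clamp gene was not called, and the 5 loader genes differed among themselves. Pcna had 34.9, 27.7 and 36.0 CPM in the knockdown libraries and 27.9, 27.5 and 28.7 CPM in the control libraries, with overlapping groups (log2 fold change 0.23 with SE 0.19, edgeR adjusted p = 0.636, and 0.244 without control replicate 1). Rfc3, a small loader subunit, had 10.5, 7.997 and 9.02 CPM in the knockdown and 5.20, 3.30 and 2.86 CPM in the control. These groups were apart (1.28, SE 0.30, edgeR adjusted p = 0.119, and 0.000774). Rfc4 had 3.9996, 2.72 and 4.57 CPM in the knockdown and 2.55, 1.43 and 2.18 CPM in the control, and Rfc5 had 8.17, 8.89 and 9.72 CPM in the knockdown and 6.82, 5.30 and 4.19 CPM in the control. Both were apart, and without control replicate 1 both passed (edgeR adjusted p = 0.0318 for Rfc4 and 0.00753 for Rfc5). Limma-voom called both with all 6 libraries. Rfc1, the large subunit, had 21.5, 18.1 and 21.3 CPM in the knockdown and 6.46, 24.5 and 29.8 CPM in the control. Its control replicate 1 lay under all knockdown libraries and its other controls above them, so its log2 fold change was 0.00 with all 6 libraries (SE 0.49) and -0.41 without control replicate 1 (SE 0.15, edgeR adjusted p = 0.0607). With an added GC content and length offset and without that library it was -0.51 (edgeR adjusted p = 0.0189), the single member called lower in any fit run, where 20.3% of all genes were called lower and 12.3% higher. Rfc2 had 21.9, 26.2 and 21.0 CPM in the knockdown and 26.0, 16.9 and 19.2 CPM in the control, with overlapping groups. Summed RFC FPKM was 40.7 ± 0.116 in the knockdown and 30.4 ± 3.89 in the control (SD, n = 3 each).

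RPA coats single-stranded DNA at the fork as a trimer. Summed RPA FPKM was 36.4 ± 5.15 in the knockdown and 26.7 ± 2.46 in the control (SD, n = 3 each). Rpa1 had 39.9, 37.6 and 42.1 CPM in the knockdown libraries and 32.8, 25.6 and 28.8 CPM in the control libraries, with the groups apart (log2 fold change 0.45 with SE 0.18, edgeR adjusted p = 0.317, and 0.00879 without control replicate 1). Rpa2 had 13.6, 8.94 and 13.4 CPM in the knockdown and 7.72, 4.16 and 4.71 CPM in the control, also apart (1.12, SE 0.32, edgeR adjusted p = 0.177, and 0.00161). Rpa3 had 3.27, 2.90 and 4.92 CPM in the knockdown and 2.29, 2.75 and 4.42 CPM in the control. It overlapped (0.23, edgeR adjusted p = 0.812). Lig1, the ligase that seals lagging strand fragments, had 13.3, 8.70 and 12.0 CPM in the knockdown and 7.95, 3.58 and 5.26 CPM in the control (1.02, SE 0.34, edgeR adjusted p = 0.234, and 0.00305). Its groups were apart. Fen1, the flap nuclease that trims those fragments, had 0.945, 0.836 and 0.443 CPM in the knockdown and 0.530, 0.516 and 0.520 CPM in the control. The counts overlapped, whereas its FPKM was 6.15, 3.88 and 3.76 in the knockdown and 2.27, 2.27 and 1.62 in the control, which did not. Exons of Tmem258 and Gm10143 cover 84.2% of the exon bases of Fen1, so its count is uncertain.

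The 3 genes of fork protection included the called gene Clspn (chr4:126556935-126593903, plus strand). It had 2.16, 0.758 and 1.54 CPM in the knockdown libraries and 0.0331, 0.0573 and 0.0975 CPM in the control libraries. Every control library was at or near the level of 3 reads. Over 3 libraries each there were 184 knockdown reads and 6 control reads, a ratio of 24.0 after scaling for library size (95% exact interval 10.8 to 66.3, counting error only), with an edgeR adjusted p of 0.037. No control library reached the minimum of the low-count filter for Clspn, so it entered the test through the knockdown libraries alone and could be tested only because it was higher there. Timeless, a fork component, had 12.3, 8.83 and 9.14 CPM in the knockdown and 3.64, 7.34 and 5.98 CPM in the control (log2 fold change 0.84 with SE 0.31, edgeR adjusted p = 0.284, and 0.0473 without control replicate 1). Its partner gene Tipin had 5.79, 3.79 and 6.11 CPM in the knockdown and 3.11, 4.27 and 3.09 CPM in the control. Timeless was apart between groups and Tipin overlapped.

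Copying of chromatin at the fork was represented by 3 genes, and the groups were apart for each. Uhrf1 (chr17:56303321-56323486, plus strand), which reads hemimethylated DNA and brings in the maintenance methyltransferase, had 22.9, 7.21 and 11.6 CPM in the knockdown libraries and 1.19, 1.52 and 1.10 CPM in the control libraries. Knockdown replicate 1 was far above the other knockdown libraries, and each of those was well above the controls. The means were 13.9 ± 8.10 CPM in the knockdown and 1.27 ± 0.219 CPM in the control (SD, n = 3 each), a log2 fold change of 3.45 with SE 0.47 (edgeR adjusted p = 0.0322). Chaf1b, a subunit of the histone chaperone CAF-1, had 5.62, 4.26 and 4.80 CPM in the knockdown and 2.55, 1.89 and 0.650 CPM in the control (1.53, SE 0.48, edgeR adjusted p = 0.208, and 0.00543 without control replicate 1). Its large subunit gene Chaf1a had 9.07, 5.17 and 6.62 CPM in the knockdown and 2.48, 3.64 and 3.90 CPM in the control (1.06, SE 0.31, edgeR adjusted p = 0.192, and 0.0269). Exons of Ubxn6 cover 52.5% of the exon bases of Chaf1a.

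Nucleotide supply had 5 members, of which edgeR called 0 with all 6 libraries, although 4 had an unadjusted p under 0.05 toward higher expression. DESeq2 called 3 and limma-voom 4 higher, against 3.73% and 18.7% of all genes. Rrm1, the large subunit of ribonucleotide reductase, had 24.9, 18.2 and 23.7 CPM in the knockdown libraries and 11.4, 10.7 and 11.8 CPM in the control libraries (log2 fold change 0.98 with SE 0.21, edgeR adjusted p = 0.0887, and 0.00252 without control replicate 1). Rrm2, the small subunit of cycling cells, had 19.8, 13.1 and 18.1 CPM in the knockdown and 3.97, 2.01 and 8.999 CPM in the control (1.77, SE 0.52, edgeR adjusted p = 0.186, and 0.0226). Both were apart, with a wide spread of Rrm2 among controls. The FPKM ratio of Rrm2 to Rrm1 was 1.51, 1.36 and 1.46 in the knockdown and 0.643, 0.423 and 1.37 in the control, which overlapped at control replicate 3. Dut, which clears dUTP, had 7.83, 7.003 and 8.09 CPM in the knockdown and 4.01, 4.04 and 5.003 CPM in the control (0.81, SE 0.23, edgeR adjusted p = 0.169, and 0.0177). Tyms, thymidylate synthase, had 6.93, 5.72 and 8.67 CPM in the knockdown and 4.93, 4.04 and 4.91 CPM in the control, and neither fit called it (edgeR adjusted p = 0.321, and 0.0525). Dut and Tyms were both apart between groups. Tk1, the thymidine kinase of S phase, had 16.4, 16.9 and 12.7 CPM in the knockdown and 27.4, 14.8 and 10.9 CPM in the control. It had the most negative log2 fold change of the members, -0.20 (SE 0.35, edgeR adjusted p = 0.835), and 0.27 without control replicate 1, where its highest value lay.

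The 5 repair members act when forks stall or break. EdgeR called 0 with all 6 libraries, and 4 had an unadjusted p under 0.05 toward higher expression. DESeq2 called 1 higher (3.73% of all genes), limma-voom 4 (18.7%) and edgeR without control replicate 1 also 4 (16.5%). Exo1, a resection nuclease, had 1.70, 0.706 and 1.00 CPM in the knockdown libraries and 0.166, 0.172 and 0.162 CPM in the control libraries (log2 fold change 2.74 with SE 0.51, edgeR adjusted p = 0.0657, and 0.00773 without control replicate 1). Blm, the Bloom syndrome helicase, had 4.97, 4.21 and 4.78 CPM in the knockdown and 1.66, 3.21 and 1.79 CPM in the control (1.07, SE 0.33, edgeR adjusted p = 0.208, and 0.0386). Brca1, a ubiquitin ligase of recombination repair, had 7.88, 7.29 and 8.67 CPM in the knockdown and 5.56, 4.62 and 4.13 CPM in the control (0.74, SE 0.23, edgeR adjusted p = 0.209, and 0.00904). All 3 were apart. Exo1, like Orc1, passed the filter through the knockdown libraries alone. Rad54l, a recombination motor, had 0.654, 0.392 and 1.31 CPM in the knockdown and 0.331, 0.0573 and 0.260 CPM in the control (1.86, SE 0.73, edgeR adjusted p = 0.303, and 0.0461), with the groups just apart. Brca2, a recombination repair gene, was the repair member with a negative fold change, with 2.93, 3.82 and 3.45 CPM in the knockdown and 0.927, 6.65 and 3.57 CPM in the control. Its groups overlapped widely (-0.13, SE 0.61, edgeR adjusted p = 0.945).

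A further 60 replication genes, listed by role and not among the members, gave the wider pathway. Of these, 58 were tested by edgeR with all 6 libraries and 0 were called. In that fit 19 had an unadjusted p under 0.05 toward higher expression and 2 toward lower, and the median log2 fold change was 0.43. DESeq2 called 15 of the 60 higher and 1 lower, against 3.73% and 1.40% of all genes. Limma-voom called 24 higher and 8 lower, against 18.7% and 18.2% of all genes. Without control replicate 1, edgeR called 24 higher and 8 lower of 59, when 16.5% of all genes were called higher and 16.1% lower, so the lower calls were near the background. The 16 tested genes of repair and checkpoint had a median of 1.40, with 11 called higher and 1 lower without that library. Some genes of this list and of the origin list reached the low-count filter's minimum in no control library. They could be tested only because they were higher in the knockdown, so these medians and higher calls rest partly on the filter. The nucleotide supply genes had a median of 0.06, and the fork genes 0.15.

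Some of the genes with the 2 smallest p of each list are given here, and others, such as Asf1b, Top2a and Mtbp, are not. Wdhd1, which ties polymerase alpha to the helicase, had 5.87, 4.44 and 4.94 CPM in the knockdown and 1.23, 2.15 and 1.20 CPM in the control (log2 fold change 1.73 with SE 0.33, edgeR adjusted p = 0.072, and 0.00395 without control replicate 1). Ticrr, an activator of origins, had 1.84, 0.732 and 1.26 CPM in the knockdown and 0.0994, 0.258 and 0.0325 CPM in the control (3.24, SE 0.72, edgeR adjusted p = 0.101, and 0.0111 without control replicate 1). Neither of these overlapped. No control library reached the low-count filter's minimum for Ticrr, so it could be tested only because it was higher in the knockdown. Dnmt1, the maintenance methyltransferase that UHRF1 recruits, had 31.2, 22.0 and 25.6 CPM in the knockdown and 15.7, 12.2 and 13.9 CPM in the control (0.91, SE 0.22, edgeR adjusted p = 0.128, and 0.00224 without control replicate 1). Shmt1, of folate metabolism, was lower in each knockdown library, with 85.3, 84.1 and 86.3 CPM in the knockdown and 181, 132 and 132 CPM in the control (-0.80, SE 0.19, edgeR adjusted p = 0.128, and 0.00428 without control replicate 1). Neither gene overlapped between groups. With all 6 libraries, DESeq2 and limma-voom both called Wdhd1, Ticrr and Dnmt1 higher and Shmt1 lower. Rrm2b, the reductase subunit of resting cells, was chosen after its values were seen and had 2.21, 2.82 and 3.66 CPM in the knockdown and 0.596, 10.2 and 10.2 CPM in the control. Control replicate 1 was its lowest library. Without that library it was called lower (-1.80, edgeR adjusted p = 0.000707), and limma-voom called it lower with all 6.

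**Figure D4:**
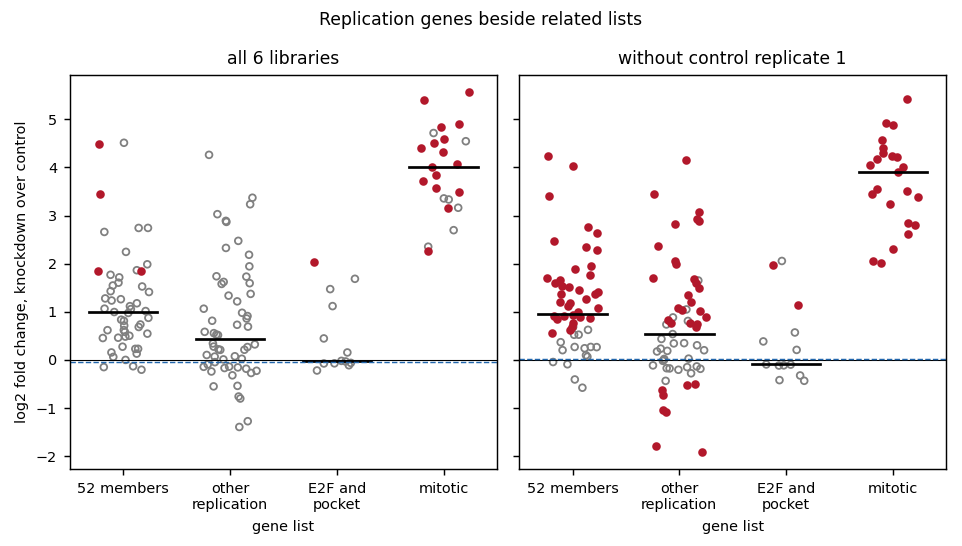
Log2 fold change (knockdown over control) of every tested gene among the 52 members, the other replication genes, the E2F and pocket protein genes and the mitotic genes, with all 6 libraries on the left and without control replicate 1 on the right. Filled points were called by edgeR, black lines are list medians (1.01, 0.43, -0.02 and 4.01 on the left), and the dashed line is the median of all genes tested.

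Of 13 E2F, DP and pocket protein genes, edgeR called 1, E2f2, higher with all 6 libraries, against 0.741% of all genes, and the list's median log2 fold change was -0.02. Limma-voom called E2f2, E2f7 and Rbl1 higher, against 18.7% of all genes, and edgeR without control replicate 1 called E2f2 and Rbl1 higher, against 16.5%. E2f2, an activating E2F, had 4.56, 3.32 and 3.96 CPM in the knockdown libraries and 0.861, 0.889 and 1.14 CPM in the control libraries. The groups were far apart (2.03, SE 0.30, edgeR adjusted p = 0.0384, and 0.00142 without control replicate 1). Rb1, the retinoblastoma gene, was not called, with a difference of -0.02 in log2 (edgeR adjusted p = 0.991). Mitosis follows S phase after the gap called G2. Of 23 mitotic genes, edgeR called 16 higher with all 6 libraries and 23 without control replicate 1, and the list's median was 4.01. Among them Bub1, Nuf2 and Ttk had 6, 7 and 8 reads over all control libraries together. No control library reached the low-count filter's minimum for these genes, so they could be tested only because they were higher in the knockdown. Nuf2 and Ttk were among the 16 calls. Cdc20, which starts anaphase, had 34.6, 18.6 and 25.4 CPM in the knockdown and 0.431, 0.545 and 0.682 CPM in the control (5.56, SE 0.36, edgeR adjusted p = 0.00958). The difference in median between mitotic and replication genes was not tested.

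Control replicate 1 touched the members in both directions. It lay below both other controls for 23 members and above both for 20, with a median difference of -0.11 in log2(CPM + 0.1) from their mean. It was more than 1 log2 unit below that mean for 7 members (Pola1, Mcm4, Brca2, Rfc1, Mcm5, Pole2 and Orc6) and more than 1 above for 3 (Cdt1, Chaf1b and Tk1). Across the 52 members this difference had a Spearman correlation of 0.35 with transcript GC content and of -0.21 with transcript length, as a description of 1 library. The mitochondrially encoded share of reads was 3.48% to 4.61% in the knockdown libraries, 2.43% in control replicate 1, and 6.94% and 5.35% in control replicates 2 and 3. The part of these values in the results was not tested.

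**Figure D5:**
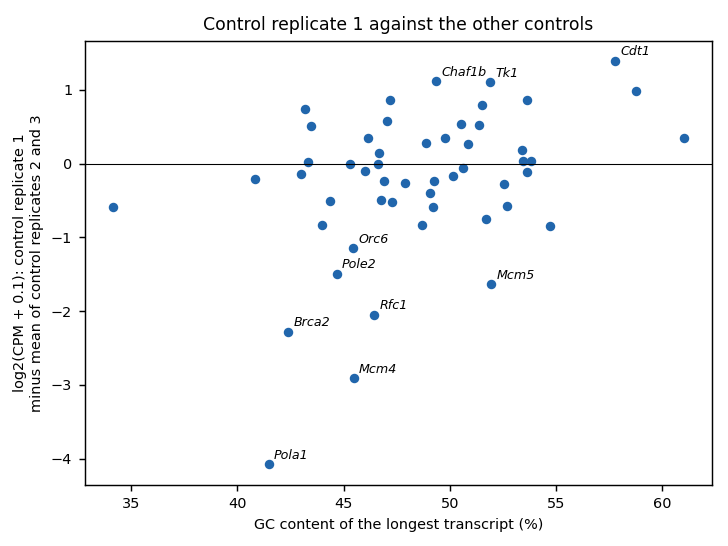
Difference of control replicate 1 from the mean of control replicates 2 and 3 in log2(CPM + 0.1) (vertical axis) against GC content of the longest transcript in percent (horizontal axis), 1 point per member. Points run below and above 0, with a Spearman correlation of 0.35 over 52 genes.

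The sums of cholangiocyte and stellate markers did not overlap between groups, and those of hepatocyte, macrophage, endothelial and erythroid markers did. Hepatocyte markers summed to 98533 to 111498 CPM in the knockdown and 100711 to 140155 CPM in the control, so the labelled cell type was present in every library. The 8 cholangiocyte markers summed to 364 to 592 CPM in the knockdown and 60.4 to 66.2 CPM in the control. Most of that was Spp1, with 539, 322 and 528 CPM in the knockdown and 30.7, 37.8 and 40.8 CPM in the control, while the defining keratin genes Krt19 and Krt7 were under 1 CPM in every library. Stellate cell and fibroblast markers summed to 110 to 187 CPM in the knockdown and 36.3 to 67.2 CPM in the control, and macrophage markers to 503 to 606 CPM in the knockdown and 284 to 584 CPM in the control. Endothelial markers summed to 101 to 145 CPM in the knockdown and 116 to 130 CPM in the control, and erythroid markers to 17.8 to 21.1 CPM in the knockdown and 13.0 to 31.7 CPM in the control. Of the 6 cholangiocyte markers tested, 5 had a positive log2 fold change and 1 a negative one, -1.39. Of these lists, edgeR called Spp1, Prom1 and the stellate gene Acta2 higher with all 6 libraries, against 0.741% of all genes. Without control replicate 1 it called 8 of 10 macrophage, 4 of 6 stellate and 3 of 8 cholangiocyte markers higher, against 16.5% of all genes. In that fit it called 2 of 6 hepatocyte markers, Cps1 and Ttr, lower, against 16.1% of all genes. The part of these cells in the results was not tested. The 7 markers of T and NK cells, the 5 of B cells and the 5 of neutrophils were each under 1 CPM in every library, and the neutrophil gene Ly6g had 0 reads.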

How the data were processed

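Liver RNA of 6 samples was analysed, grouped by the labels into 3 knockdown and 3 control libraries. The authors deposited a count file per sample, with unnormalised reads per gene, and 1 table of FPKM values. Per the submitters' processing notes, which assign no roles, the tools were HISAT2 2.10, HTSeq and Cufflinks 2.2.1 and the build was GRCm38 (mm10). Whether strand was used in counting is not stated. Members were found by symbol and joined by gene identifier. Lines that name no gene (2.48% to 5.66% of reads without a feature, 4.69% to 6.87% ambiguous) were left out.

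Counts were filtered by filterByExpr, scaled by TMM (factors 0.852 to 1.13) and tested with the edgeR 4.0.16 quasi-likelihood test in R 4.3.3 on group alone, with Benjamini-Hochberg adjustment over 13767 genes and a threshold of 0.05. All 52 members passed the filter, 3 of them (Orc1, Clspn and Exo1) through the knockdown libraries alone. CPM use TMM-scaled library sizes, and SE values come from the fold change and its F statistic. FPKM served for levels between genes. No replicate pair agreed within sampling noise. This test was first tried on simulated data. Alternatives used DESeq2 1.42.0, limma 3.58.1, other filters and scalings, the replicate block and each library left out. Exon overlaps, GC content and length came from GENCODE M21. The members and lists were chosen with earlier results of these data known. A rule picked non-member genes to name, the 2 smallest and the largest p of a list, but only some of those picked are given. Rrm2b, the other origin recognition subunits, the mitotic genes with few control reads and the cell markers were named outside it. A gene of the repair and checkpoint list is not reported by name here.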

Additional observations from a re-analysis of the deposited data

How the results depend on the processing

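With all 6 libraries edgeR called 4 members higher (0.741% of all genes). The count was 9 without a filter on low counts, 23 with DESeq2 (3.73%) and 37 with limma-voom and quality weights (18.7%). It was 14 with the GC content and length offset (2.30%) and 31 with that offset and without control replicate 1 (12.3%). Both offset fits were added after seeing the data. The member count was 2 with log2(FPKM + 1) and 1 with log2(FPKM + 0.1), where 48 members were tested, and 0 to 36 when a library was left out. The 36 were without control replicate 1 (16.5% of all genes). The 0 were without each of the other 5, where 26 to 37 members had an unadjusted edgeR p under 0.05. For the fits without a filter, on FPKM or without another library, the share of all genes is not given. Those counts therefore have no background here. The shares given also apply to the counts that follow. Of the other replication genes, 0 were called higher by edgeR with all 6 libraries, against 5 without a filter, 15 with DESeq2, 24 with limma-voom, 3 and 1 with the FPKM pseudocounts of 1 and 0.1, 8 with the offset, 26 with the offset and without control replicate 1, and 0 to 24 when a library was left out. The median log2 fold change of the members ran from 0.55 with log2(FPKM + 1), a scale that understates low genes, to 1.17 without knockdown replicate 2.

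Same-numbered libraries deviated together with correlations of 0.25, -0.08 and 0.29. With so few libraries per group these values cannot show whether the numbers pair the samples. With the replicate block, edgeR called 0 members and 0 other replication genes, with 32 members at an unadjusted p under 0.05. Control replicates 1 and 3 correlated best with the knockdown replicate of the same number, and control replicate 2 with knockdown replicate 3.

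Of 52 members, 43 had a positive fold change in every fit that held them. The direction turned for 9. Leaving out 1 library at a time, the log2 fold change ran from -0.031 to 0.25 for Gmnn, from -0.21 to 0.010 for Gins4, from -0.090 to 0.89 for Pola1, from -0.41 to 0.38 for Rfc1, from -0.46 to 0.27 for Tk1, from -0.58 to 0.59 for Brca2 and from -0.00057 to 0.55 for Rpa3. Of the other reversals, the log2 fold change of Rfc1 was -0.020 with median ratio factors, -0.018 with DESeq2, -0.32 with limma-voom, -0.0015 with abundant genes removed, -0.14 with the offset and -0.51 with the offset and without control replicate 1. That of Pola1 was -0.061 with limma-voom, and that of Tk1 0.21. Brca2 had a log2 fold change of 0.067 and 0.27 with the FPKM pseudocounts of 1 and 0.1, and of 0.21 with the replicate block. With the offset, Prim2 had -0.094 and Rfc2 -0.036. The cause was not tested. Genes near 3 reads per control library, such as Orc1 and Clspn, have ratios limited by depth.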

Other observations

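Counts and FPKM of the same libraries differed for some members. Brca1, whose counts were apart between groups, had overlapping FPKM and a log2(FPKM + 1) difference of 0.06 (limma adjusted p = 0.93). Fen1, whose counts overlapped, had a difference of 0.86 on that scale (limma adjusted p = 0.148). Pole, Blm, Rad54l, Rfc4 and Mcm10 also had counts that were apart between groups and FPKM that overlapped. Across the 52 members, a higher mean FPKM went with a smaller log2 fold change (Spearman correlation -0.50, a description over genes of the same 6 libraries).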
